A study of Mus musculus with 26 samples.

Results

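Epcam, Ocln, Cldn3, Cldn4, Cldn6, Cldn7, Esrp1, Spint1 and Dsp are genes of epithelial cell contacts and of epithelial splicing, and they were followed through the reprogramming of mouse fibroblasts. The 9 genes were chosen by name from a table of 18198 genes, and their values were read in all 26 libraries. Earlier results of these data were known at that choice, so counts set against all genes are a description and no independent test. RNA sequencing libraries had been made from 13 groups with 2 libraries each. The iPSC group was pluripotent colonies that were picked and grown on for 5 to 8 passages. The ESC group was embryonic stem cells of the CBA/CaJ X C57BL/6J strain at passage 20 to 24, kept like the iPSC in N2B27 with 2i and LIF. The OSK-cJun groups were fibroblasts given OSK, the usual short form for Oct4, Sox2 and Klf4, together with cJun, the product of Jun, and taken at days 0, 1, 3 and 7. The OSK-shSap30 group was taken at day 7 and received OSK with a short hairpin RNA against Sap30, carried by a lentivirus. The OSK groups received the factors from retrovirus made in PlatE cells and were taken at days 0, 1, 3, 5 and 7, and all infected groups share this origin and were grown in iCD1 or in an ESC medium, which the labels do not tell apart by sample. The MEF group was embryonic fibroblasts at passage 2 in 10% FBS. The labels name no sort of the infected cultures and do not say whether the libraries of a group came from separate cultures, so p-values measure only the spread between these libraries.

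Tight junctions seal neighbouring epithelial cells with strands of claudins and occludin, and desmosomes anchor their intermediate filaments to each other. Esrp proteins give many transcripts their epithelial splice form. When fibroblasts are reprogrammed they pass through a mesenchymal-to-epithelial transition, in which such genes are switched on while transcription repressors such as Snai2 and Zeb1, which bind CACCTG motifs (E-boxes), are lost.

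The deposited values were a normalised score forced to the same distribution in each library, so the totals ran only from 4619641 to 4624161, the highest value was 21544 and sequencing depth is unknown. Levels can be compared for 1 gene between libraries, but not between genes, because no source says that the score is divided by transcript length. A gene was called when limma gave a Benjamini-Hochberg adjusted p below 0.05 over all 16038 genes tested and a log2 fold of at least 1 on the log2(score + 1) scale, which understates the change of low genes. All 9 genes passed the filter on low values, a score of at least 10 in at least 2 libraries, from 7 libraries for Esrp1 to 25 for Dsp. The summed score of 8 pluripotency markers was 20724 to 20753 in iPSC and 21546 to 22502 in ESC, against 9 to 19 in MEF. The summed score of 8 fibroblast markers was 28711 to 34679 in iPSC and 11834 to 22173 in ESC, against 90230 to 93493 in MEF. Fn1, which many cell types express, made up most of the stem cell sums, and in ESC over MEF 7 of the 8 were called as lower, with a median log2 fold of -7.27, while in iPSC over ESC 7 of the 8 were called as higher, with a median of 3.21. Sap30 stood at 20 and 41 in OSK-shSap30, against 301 and 378 in OSK at day 7, and Jun at 8981 and 6124 in OSK-cJun at day 7, against 1010 and 582 in OSK. Fewer cells of a type and less RNA per cell cannot be told apart in these bulk libraries.

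The 9 genes lie on 6 chromosomes of the GRCm38 build and are all annotated as protein coding. Cldn3 (chr5:134986214-134987472, plus strand) and Cldn4 (chr5:134945119-134946934, minus strand) are neighbours, 39.3 kb apart with 0 annotated genes lying wholly between them. Epcam lies at chr17:87635979-87651129 on the plus strand and Cldn6 at chr17:23679249-23682446 on the plus strand. Dsp lies at chr13:38151294-38198577 on the plus strand and Ocln at chr13:100496507-100552718 on the minus strand. Cldn7 is at chr11:69964779-69967885 (plus), Spint1 at chr2:119237362-119249527 (plus) and Esrp1 at chr4:11331933-11386783 (minus).

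Promoter windows of RefSeq (GRCm38.p6, 250 bases before to 50 after a start) were found for 8 of the 9 genes, in 10 windows, and 4 are printed whole because they represent the main time patterns described here. Each runs 5′ to 3′ along its gene, and capitals mark E-box letters (CACCTG, read on either strand) and AP-1 letters (TGANTCA), the motif that Jun-containing dimers bind.
Epcam, chr17:87635729-87636028, plus strand: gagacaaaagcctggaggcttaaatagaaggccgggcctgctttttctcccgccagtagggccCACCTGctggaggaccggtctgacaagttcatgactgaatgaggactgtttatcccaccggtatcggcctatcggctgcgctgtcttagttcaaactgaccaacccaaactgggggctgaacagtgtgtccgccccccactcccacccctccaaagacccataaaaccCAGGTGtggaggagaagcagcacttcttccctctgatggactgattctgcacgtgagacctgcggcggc
Cldn4, chr5:134946885-134947184, minus strand: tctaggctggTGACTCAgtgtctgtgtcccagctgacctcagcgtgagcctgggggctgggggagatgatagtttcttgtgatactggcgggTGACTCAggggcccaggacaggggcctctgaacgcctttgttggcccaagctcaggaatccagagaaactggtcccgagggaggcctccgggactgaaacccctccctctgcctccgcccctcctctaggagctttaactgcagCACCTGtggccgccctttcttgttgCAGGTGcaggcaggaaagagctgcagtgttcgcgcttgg
Spint1, chr2:119237110-119237409, plus strand: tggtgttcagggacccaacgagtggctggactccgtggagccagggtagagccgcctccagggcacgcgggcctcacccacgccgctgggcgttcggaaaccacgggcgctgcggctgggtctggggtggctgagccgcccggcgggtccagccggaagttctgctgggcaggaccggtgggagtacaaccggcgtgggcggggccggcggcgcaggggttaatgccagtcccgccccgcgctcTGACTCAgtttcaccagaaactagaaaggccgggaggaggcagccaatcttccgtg
Dsp, chr13:38151044-38151343, plus strand: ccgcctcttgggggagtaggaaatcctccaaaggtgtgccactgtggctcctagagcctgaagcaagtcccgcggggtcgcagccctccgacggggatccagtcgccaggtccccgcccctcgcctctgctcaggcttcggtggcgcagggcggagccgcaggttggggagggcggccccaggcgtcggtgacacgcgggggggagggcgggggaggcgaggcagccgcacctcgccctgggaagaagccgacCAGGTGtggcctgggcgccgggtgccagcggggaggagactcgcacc
E-box letters were found in 7 of the 8 genes with a window, against 22.6% of the 27025 genes in the promoter table. They were absent from the window of Spint1, and Cldn7 had them only at the second of its starts. Epcam and Cldn4 each held 2 matches, and the one of Dsp lay 4 bases after its start. AP-1 letters were found in 2 of the 8 genes, Cldn4 with 2 matches and Spint1 with 1, against 8.97% of all genes. GC-box letters (GGGCGG, either strand) were in 8 of 8, against 38.2%. The windows of these genes had a GC content of 52% to 73%, against a median of 52.7% over all 32851 windows. The shares of all genes are not matched for GC content. The Grhl letters AACCGGTT were in 0 of 8, against 0.174%. A match describes the letters of a window only. For the other 4 genes, 1 match of the E-box letters each is shown in a stretch of 30 bases, with capitals on the match.
Ocln, chr13:100552694-100552723, minus strand: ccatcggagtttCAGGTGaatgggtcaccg
Cldn3, chr5:134986233-134986262, plus strand: caaagccacaggCAGGTGcaggggcagtct
Cldn6, chr17:23679260-23679289, plus strand: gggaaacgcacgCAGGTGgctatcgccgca
Cldn7, chr11:69965352-69965381, plus strand: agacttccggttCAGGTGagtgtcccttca

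**Figure D1:**
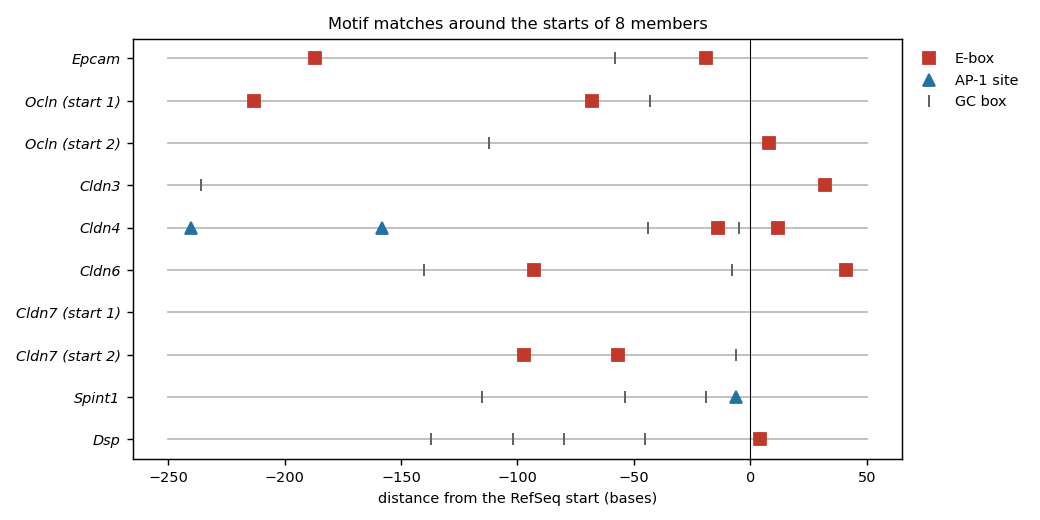
Positions of motif matches in the promoter windows of the members, with distance from the start in bases on the horizontal axis and 1 line per window, for E-box, AP-1 and GC-box letters. E-box letters appear in 7 of 8 genes and AP-1 letters in Cldn4 and Spint1 only.

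All 9 genes were called as higher at day 7 than at day 0 of OSK, and 8 of 9 over the same days of OSK-cJun. The exception was Esrp1, whose log2 fold of 1.77 in OSK-cJun did not pass. At day 7 OSK-cJun stood lower than OSK in Cldn3, Cldn4, Cldn7, Esrp1 and Spint1 and higher in Dsp. The day 0 cultures already expressed the factors, with Pou5f1, the Oct4 gene, at 11662 and 8974 in OSK, against 2 and 0 in MEF. Jun stood at 4616 and 5023 in OSK-cJun at day 0, against 875 and 620 in OSK. Day 0 is therefore not a baseline without the factors. Dsp was already higher at day 0 than in MEF. The steps in which the other calls fell give no order between the genes, which was not tested. The values of each gene follow, by its role in the cell contact.

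**Figure D2:**
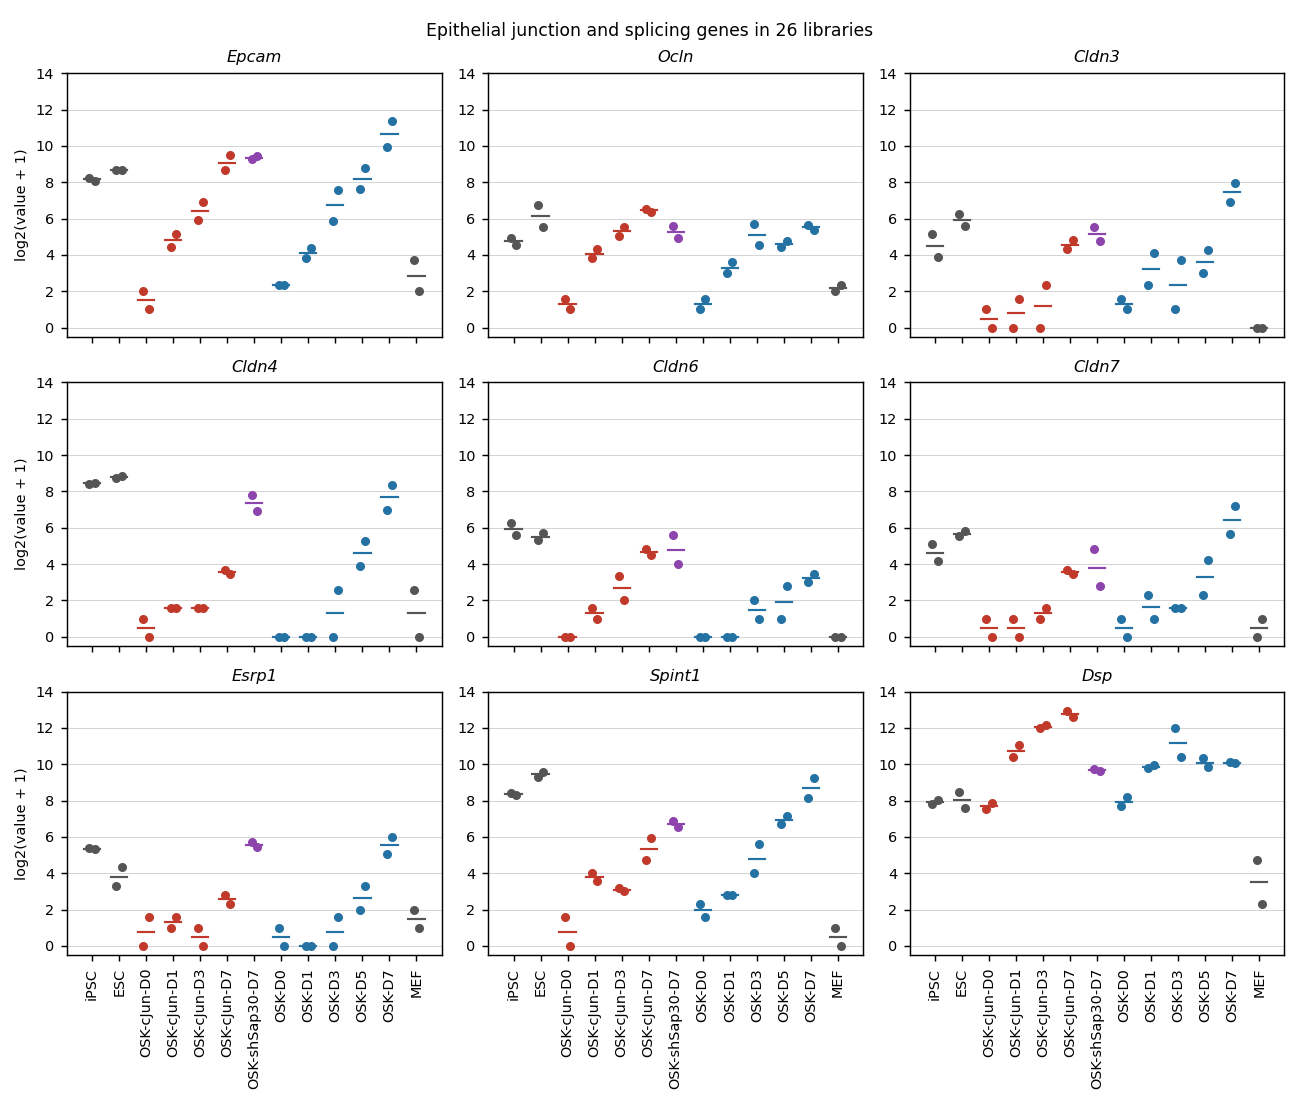
Score of each of the 9 genes in every library, on a log2(score + 1) axis, with groups on the horizontal axis in the order iPSC, ESC, OSK-cJun days 0 to 7, OSK-shSap30 at day 7, OSK days 0 to 7 and MEF, and with 2 points and a bar at their mean per group. Dsp alone runs higher with OSK-cJun than with OSK at day 7 with a call, while Cldn4 stays at 12 and 10 in OSK-cJun against 124 and 332 in OSK.

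Epcam encodes an epithelial adhesion molecule that binds Cldn7 protein and is a surface marker of mouse embryonic stem cells. Its score was 303 and 269 in iPSC and 400 and 400 in ESC. In OSK-cJun it was 3 and 1 (day 0), 21 and 34 (day 1), 59 and 118 (day 3) and 401 and 731 (day 7), and in OSK-shSap30 at day 7 it was 610 and 686. In OSK it was 4 and 4 (day 0), 13 and 20 (day 1), 58 and 189 (day 3), 197 and 434 (day 5) and 971 and 2619 (day 7), and MEF had 12 and 3. The group mean of Epcam was higher at each later day of both courses, and at day 7 of OSK both libraries exceeded those of every other group, with a mean 449% of that in ESC. The change over OSK was a log2 fold of 8.32 (SE 0.63, limma adjusted p = 6.58e-08), and over OSK-cJun it was 7.58 (SE 0.63, adjusted p = 2.32e-07). Its 2 OSK libraries at day 7 differed widely from each other, and the fold at day 7 for OSK-cJun over OSK, -1.56 (SE 0.63, adjusted p = 0.105), did not pass although the libraries did not overlap.

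Ocln encodes occludin, a membrane protein of the tight junction strand. It had 30 and 22 in iPSC and 108 and 45 in ESC. OSK-cJun gave 2 and 1 (day 0), 13 and 19 (day 1), 32 and 46 (day 3) and 93 and 82 (day 7), and OSK-shSap30 gave 48 and 30. OSK gave 1 and 2 (day 0), 7 and 11 (day 1), 51 and 22 (day 3), 21 and 26 (day 5) and 50 and 41 (day 7), and MEF 3 and 4. In OSK the Ocln libraries of days 3, 5 and 7 lay between 21 and 51. Its log2 fold over day 0 was 5.17 (SE 0.48, limma adjusted p = 5.97e-07) at day 7 of OSK-cJun and 4.24 (SE 0.48, adjusted p = 3.18e-06) at day 7 of OSK. The OSK-cJun libraries lay above those of OSK at day 7, with a fold of 0.93 (SE 0.48, adjusted p = 0.206) that did not pass.

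Claudins form the tight junction strands, and Cldn3 and Cldn4 are both receptors of a clostridial enterotoxin. Cldn3 had 34 and 14 in iPSC and 76 and 48 in ESC. In OSK-cJun it had 1 and 0 (day 0), 0 and 2 (day 1), 0 and 4 (day 3) and 19 and 27 (day 7), and OSK-shSap30 had 45 and 26. In OSK it had 2 and 1 (day 0), 4 and 16 (day 1), 1 and 12 (day 3), 7 and 18 (day 5) and 119 and 250 (day 7), and both MEF libraries were listed at 0. Both OSK libraries at day 7 lay above all others, and the earlier days overlapped from one to the next from day 1 on.

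Cldn4 was abundant in the stem cells, at 344 and 357 in iPSC and 428 and 456 in ESC. OSK-cJun libraries had 1 and 0 (day 0), 2 and 2 (day 1), 2 and 2 (day 3) and 12 and 10 (day 7), while OSK-shSap30 had 226 and 121. OSK libraries were listed at 0 at days 0 and 1, had 0 and 5 (day 3), 14 and 38 (day 5) and 124 and 332 (day 7), and MEF had 5 and 0. In OSK-cJun Cldn4 was at or below 2 until day 3, and in OSK it was at or below 5. The hairpin libraries overlapped those of OSK at day 7, and both exceeded OSK-cJun.

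Cldn6, a claudin of embryonic epithelia, had 75 and 48 in iPSC and 39 and 51 in ESC. OSK-cJun had 0 and 0 (day 0), 2 and 1 (day 1), 9 and 3 (day 3) and 28 and 22 (day 7), and OSK-shSap30 had 47 and 15. OSK had 0 and 0 at days 0 and 1, 3 and 1 (day 3), 1 and 6 (day 5) and 7 and 10 (day 7), and MEF had 0 and 0. Cldn6 was the only claudin of the 4 with higher libraries in OSK-cJun than in OSK at day 7, and that difference did not pass (log2 fold 1.46, SE 0.66, limma adjusted p = 0.146).

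Cldn7, the claudin that Epcam binds, had 33 and 17 in iPSC and 45 and 56 in ESC. OSK-cJun had 1 and 0 (day 0), 1 and 0 (day 1), 1 and 2 (day 3) and 12 and 10 (day 7), and OSK-shSap30 had 27 and 6. OSK had 1 and 0 (day 0), 4 and 1 (day 1), 2 and 2 (day 3), 4 and 18 (day 5) and 50 and 145 (day 7), and MEF had 0 and 1. Cldn7 and Cldn3 ran closely together over the 13 group means, with a Pearson r of 0.966 on the log2 scale. This r is given as a description, since the groups share their processing and may not be independent of each other.

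Esrp1 encodes an RNA-binding protein that sets epithelial splice forms. It had 41 and 39 in iPSC and 9 and 19 in ESC. OSK-cJun had 0 and 2 (day 0), 1 and 2 (day 1), 1 and 0 (day 3) and 6 and 4 (day 7), while OSK-shSap30 had 52 and 42. OSK had 1 and 0 (day 0), 0 and 0 (day 1), 0 and 2 (day 3), 3 and 9 (day 5) and 33 and 63 (day 7), and MEF had 3 and 1. Esrp1 was at or below 2 until day 3 in both courses, and the hairpin libraries lay inside the range of OSK at day 7. From day 0 to day 7 it gained a log2 fold of 1.77 in OSK-cJun (SE 0.72, limma adjusted p = 0.0858), which did not pass, and rose by 5.04 in OSK (SE 0.72, adjusted p = 3.56e-05).

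Spint1 encodes a Kunitz-type inhibitor of membrane serine proteases such as matriptase. It had 345 and 317 in iPSC and 640 and 763 in ESC. OSK-cJun had 2 and 0 (day 0), 15 and 11 (day 1), 8 and 7 (day 3) and 26 and 61 (day 7), and OSK-shSap30 had 116 and 94. OSK had 4 and 2 (day 0), 6 and 6 (day 1), 15 and 48 (day 3), 104 and 139 (day 5) and 277 and 606 (day 7), and MEF had 1 and 0. At day 7 the 3 infected groups did not overlap, with OSK-cJun lowest and OSK highest. Spint1 rose by a log2 fold of 4.56 over OSK-cJun (SE 0.58, limma adjusted p = 1.69e-05) and 6.73 over OSK (SE 0.58, adjusted p = 2.02e-07).

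Dsp encodes desmoplakin, which ties desmosomes to intermediate filaments. It had 227 and 266 in iPSC and 352 and 193 in ESC. OSK-cJun had 183 and 236 (day 0), 1349 and 2151 (day 1), 4013 and 4616 (day 3) and 7721 and 6123 (day 7), and OSK-shSap30 had 865 and 796. OSK had 205 and 296 (day 0), 896 and 983 (day 1), 4014 and 1348 (day 3), 1294 and 909 (day 5) and 1099 and 1056 (day 7), and MEF had 26 and 4. Dsp followed a pattern of its own among the 9: it was near the level of the stem cells at day 0, exceeded their range in both courses from day 1 on, and was highest in OSK-cJun at day 7. Its log2 fold over day 0 was 5.04 (SE 0.58, limma adjusted p = 7.69e-06) at day 7 of OSK-cJun and 2.12 (SE 0.58, adjusted p = 0.00943) at day 7 of OSK. Without the first OSK library of day 0 the OSK course gave 1.86 and lost its call.

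Across the OSK course, the day 0 libraries differed from MEF in 1 of the 9 genes, Dsp (log2 fold 4.41, SE 0.58, limma adjusted p = 0.00011), which was higher, against 6.98% of all genes called and 4.92% called as higher. Day 1 over day 0 called 2 of 9, both higher, against 6.3% of all genes and 3.18% as higher. Ocln had a fold of 2.00 (SE 0.48, adjusted p = 0.0143), while Dsp had 1.93 (SE 0.58, adjusted p = 0.0494). The call of Dsp was lost when any 1 of its 4 libraries was left out, with folds of 1.66 to 2.19, and that of Ocln without the first library of day 0 or the second of day 1, with a fold of 1.71 each. Day 3 over day 1 called 3 of 9, all higher, against 6.55% of all genes and 3.55% as higher. Epcam had 2.63 (SE 0.63, adjusted p = 0.0149), Ocln 1.82 (SE 0.48, adjusted p = 0.0245), and Spint1 had a fold of 2.00 (SE 0.58, adjusted p = 0.0414). Without the first library of day 1 the 3 folds were 2.33, 1.53 and 2.00 and none of these 3 passed. Without the second library of day 3 Epcam had 1.78 and Spint1 1.19, neither called, Ocln without the first had 1.23, and Spint1 without the second of day 1 had 2.00.

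Day 5 over day 3 called 0 of 9 with limma, against 0.412% of all genes, while the median log2 fold was 1.47 for the 9 and 0 for all genes. Day 7 over day 5 called 5 of 9, all higher, against 4.06% of all genes and 1.91% as higher. The folds were 2.44 for Epcam (SE 0.63, adjusted p = 0.0338), 3.82 for Cldn3 (SE 0.92, adjusted p = 0.0269), 3.08 for Cldn4 (SE 0.81, adjusted p = 0.0348), 3.15 for Cldn7 (SE 0.80, adjusted p = 0.0315) and 2.88 for Esrp1 (SE 0.72, adjusted p = 0.0292). All 5 calls were lost without the first library of day 5, with folds of 1.88 to 3.19, and without the second library of day 7, with folds of 1.73 to 3.28. The second OSK library was the higher one in 8 of the 9 genes at day 5 and in 7 at day 7, where the median gap was 1.06 on the log2 scale while that of all genes was 0. The first library of day 5 also stood apart in the delivered factors, with Pou5f1 (Oct4) at 656, Sox2 at 1792 and Klf4 at 3263, against 21544, 6116 and 11663 in the second. The part of these gaps in the results was not tested.

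Day 7 over day 0 called 9 of 9 as higher in OSK, against 23.8% of all genes called and 11.3% called as higher. The median log2 fold of the 9 was 5.93 and that of all genes 0.06, with Cldn4 and Cldn6 listed at 0 at day 0. Among the 7 others Epcam had the largest fold, Cldn3 rose by 6.15 (SE 0.92, adjusted p = 6.18e-05) and Cldn7 by 5.93 (SE 0.80, adjusted p = 2.11e-05). In OSK-cJun the same days called 8 of 9 as higher, against 17.7% called and 8.89% called as higher, with Cldn6 listed at 0 at day 0 and Cldn3 at a fold of 4.06 (SE 0.92, adjusted p = 0.00334). Cldn4 and Cldn7 had the same fold there, 3.08, and both calls were lost without the second library of day 0 (2.58 each) and without the first of day 7 (2.96 each).

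The comparison of OSK-cJun with OSK sets cultures with added cJun beside those without. No group is labelled with a control gene in its place, so cJun cannot be told apart from delivery of a further gene. At day 0 the delivered factors were lower in OSK-cJun: Pou5f1 at 6923 and 7715, Sox2 at 3263 and 3608, and Klf4 at 3769 and 4302. OSK had 11662 and 8974, 4302 and 4609, and 5481 and 6923. At day 7 only Klf4 did not overlap, at 8974 and 6116 in OSK-cJun and 21544 and 11663 in OSK. The part of these gaps in the calls was not tested. OSK-cJun over OSK called 0 of the 9 genes at day 0 (0.0748% of all genes), 0 at day 1 (1.98%) and 0 at day 3 (7.54%) with limma. The median log2 fold of the 9 was 0.86 at day 1, -0.29 at day 3 and -2.85 at day 7. That of all genes was -0.02, -0.02 and -0.05. At day 1 Cldn4, Cldn6 and Esrp1 were at or below 2 in every library of both courses. At day 7, 5 were lower and 1 higher, against 11.8% of all genes called, 5.03% as lower and 6.76% as higher. Spint1 was lower by a log2 fold of -3.33 (SE 0.58, adjusted p = 0.000814) and Cldn4 by -4.09 (SE 0.81, adjusted p = 0.00208). Both calls held when any 1 library was left out. Esrp1 was lower by -2.98 (SE 0.72, adjusted p = 0.00816), Cldn7 by -2.85 (SE 0.80, adjusted p = 0.0212) and Cldn3 by -2.87 (SE 0.92, adjusted p = 0.0403). These 3 depended on single libraries: without the second OSK library the folds were -2.52, -2.09 and -2.34, none called. Esrp1 also lost its call without the second OSK-cJun library (-2.74), Cldn7 without either OSK-cJun library (-2.97 and -2.73), and Cldn3 without any 1 of the 4 (-3.41 to -2.34). Dsp was higher by 2.67 (SE 0.58, adjusted p = 0.00442), also with any 1 library left out. With 0.1 in place of 1 added before the logarithm, 1 of the 9 was called, Dsp.

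The change from day 0 to day 7 differed between the courses in 1 of the 9 genes, Cldn4, where the fold in OSK-cJun minus that in OSK was -4.59 on the log2 scale (SE 1.14, limma adjusted p = 0.0322), against 3.82% of all genes called and 1.36% called as lower. Cldn4 was listed at 0 in both OSK libraries of day 0, so the size depends on the value added, and the call was lost when any 1 library was left out other than the first of OSK at day 7 (-5.09 to -3.89). The difference for Dsp, 2.92 (SE 0.82, adjusted p = 0.055), and that for Esrp1, -3.27 (SE 1.01, adjusted p = 0.0801), did not pass.

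**Figure D3:**
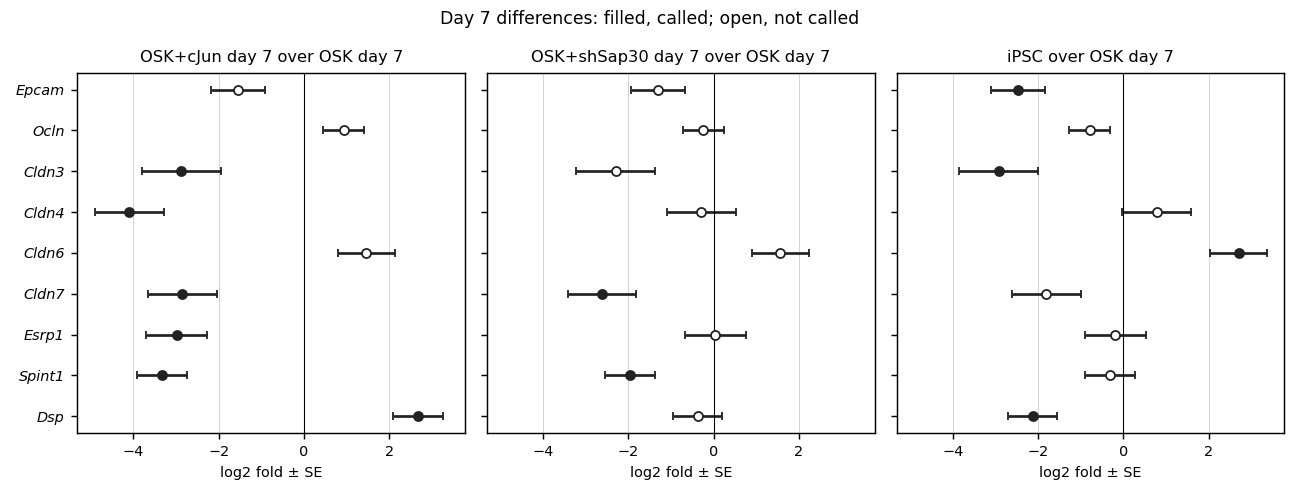
Log2 folds of the 9 genes in 3 panels, for OSK-cJun over OSK at day 7, OSK-shSap30 over OSK at day 7 and iPSC over OSK at day 7, with bars of 1 SE from the limma fit, filled points called and open points not. Spint1 at -3.33 and Cldn4 at -4.09 lie lowest with cJun and Dsp at 2.67 highest.

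The fibroblast markers had a summed score of 37094 to 37968 in OSK-cJun at day 7, against 19906 to 20424 in OSK, with 0 of the 8 at 0 in either group. Within the list, 1 of the 8 was called as higher, Col3a1 at a log2 fold of 2.62, 1 as lower, Fn1 at -1.50, and the median was -0.10. The pluripotency markers summed to 35 to 65 in OSK-cJun and 980 to 1418 in OSK, also with 0 of the 8 at 0. The keratinocyte markers, 7 of which are in the table, summed to 83 to 137 in OSK-cJun, with 1 at 0, and to 40 to 80 in OSK, with 2 at 0. The 8 trophoblast markers summed to 276 to 312 in OSK-cJun and 171 to 175 in OSK, with 1 at 0 in each. The macrophage and blood markers summed to 379 to 686 in OSK-cJun and 125 to 144 in OSK, the endothelial markers to 578 to 1156 in OSK-cJun and 324 to 499 in OSK, and the primitive endoderm markers to 160 to 239 in OSK-cJun and 97 to 109 in OSK. The part of these shifts in the 6 calls was not tested.

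OSK-shSap30 over OSK at day 7 compares cultures with and without the hairpin against Sap30, a subunit of a Sin3 histone deacetylase complex. It called 2 of the 9 genes, Cldn7 (log2 fold -2.62, SE 0.80, adjusted p = 0.0353) and Spint1 (-1.96, SE 0.58, adjusted p = 0.0314), both lower, against 9.85% of all genes called and 4.92% called as lower. Neither held without the second OSK library (-1.87 and -1.40) or the second hairpin library (-1.62 and -1.81), and Spint1 was also lost without the first (-2.11). Cldn4, Esrp1 and Ocln overlapped between the groups, and Dsp, Epcam, Cldn3 and Cldn6 did not overlap but did not pass, with folds of -0.38, -1.30, -2.30 and 1.56. The fibroblast markers summed to 12134 to 13356 in OSK-shSap30 and 19906 to 20424 in OSK, and the pluripotency markers to 467 to 581 in OSK-shSap30 and 980 to 1418 in OSK, and the part of this in the calls was not tested. The 2 day 7 comparisons share the same OSK libraries. No group is labelled with a control hairpin, so less Sap30 cannot be told apart from delivery of a hairpin by lentivirus.

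Against MEF, ESC were higher in 9 of 9 genes, against 43% of all genes called and 22.4% called as higher. Spint1 had the largest fold, 8.95, while Esrp1 had the smallest, 2.32 (SE 0.72, adjusted p = 0.0107), and its call was lost without the second ESC library or the second MEF library (1.82 each). Cldn3 and Cldn6 were listed at 0 in both MEF libraries. Between iPSC and ESC 0 of 9 were called with limma, against 6.22% of all genes, and the median log2 fold was -0.49 for the 9 and 0 for all genes. Ocln came closest, with a fold of -1.41 (adjusted p = 0.0964).

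The picked iPSC differed from the OSK cultures of day 7 in 4 of the 9 genes, against 30.3% of all genes called, 14.7% as higher and 15.7% as lower. Epcam was lower by -2.48 (SE 0.63, adjusted p = 0.00465), Cldn3 by -2.92 (SE 0.92, adjusted p = 0.0169) and Dsp by -2.13 (SE 0.58, adjusted p = 0.00733), while Cldn6 was higher by 2.70 (SE 0.66, adjusted p = 0.00336). The calls of Epcam and Cldn3 were lost without the second OSK library, with folds of -1.76 and -2.39, and Cldn3 also without the second iPSC library, at -2.31.

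Ordered by group mean, Spint1 and Cldn4 were highest in ESC, Cldn6 in iPSC, Ocln and Dsp in OSK-cJun at day 7, and Epcam, Cldn3, Cldn7 and Esrp1 in OSK at day 7. The top group overlapped the next one for Ocln, Cldn6, Cldn7 and Esrp1 and did not for Epcam, Cldn3, Cldn4, Spint1 and Dsp.

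Related genes were counted in lists drawn up by function, also with earlier results of these data known, so the counts are a description. Beside each count stands the share of all genes called, 23.8% for OSK at day 7 over day 0 (11.3% as higher). For day 7 it was 11.8% for OSK-cJun over OSK and 9.85% for OSK-shSap30 over OSK. Of the other desmosome genes, 7 of 14 were higher at day 0 of OSK than in MEF, as Dsp was, against 4.92% of all genes. Over OSK-cJun 10 of the 14 rose, against 8.89% of all genes called as higher. From day 0 to day 7 of OSK, 6 of the 14 rose and 0 fell. Pkp1, a desmosomal plaque protein, had a mean score of 1119 at day 7, against 22.5 at day 0 (log2 fold 5.58, SE 0.50, limma adjusted p = 2.62e-07), and Dsg2, a desmosomal cadherin, had 340.5, against 5.5 (5.75, SE 0.69, adjusted p = 6.55e-06). OSK-cJun over OSK at day 7 gave 3 higher and 1 lower of the 14. The adhesion gene Perp had 2545 and 1255 in OSK-cJun and 274 and 217 in OSK (2.87, SE 0.51, adjusted p = 0.00101), and the plaque protein gene Pkp2 had 462 and 301, against 107 and 105 (1.81, SE 0.35, adjusted p = 0.00194). The desmosomal cadherins went opposite ways, with Dsc2 at 562 and 577 in OSK-cJun, against 50 and 71 in OSK, and Dsg2 at 47 and 34, against 349 and 332. The fold of Dsc2 was 3.23 (SE 0.68, adjusted p = 0.0034), that of Dsg2 was -3.06 (SE 0.69, adjusted p = 0.00565), and neither passed with 0.1 added. OSK-shSap30 over OSK gave 2 higher and 1 lower of the 14, the lower one being Pkp1, whose call was lost without the second OSK library (-1.66) or the second hairpin library (-1.73).

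Of the other tight junction genes, 12 of 22 rose and 2 fell over OSK, with a median log2 fold of 1.26. Marveld2, a relative of occludin at cell corners, rose by 5.23 and its partner Ildr1 by 6.46, while Amot, a scaffold protein, fell by 2.54, and Crb3, a polarity protein, had a mean of 39.5 and was listed at 0 at day 0. Cgnl1 and Marveld3 were the 2 of 22 called as lower in OSK-cJun than in OSK at day 7, and 0 were higher, a share near the 11.8% of all genes called. Cgnl1 lost its call without the second OSK-cJun library (-1.09) or the first OSK library (-1.15), and Marveld3 without any 1 of the 4 (-2.63 to -2.14). OSK-shSap30 over OSK gave 1 higher, Jam2, and 2 lower, Patj and Ildr1, of the 22, against 9.85% of all genes. Without the second OSK library their folds were 1.43, -1.34 and -2.41 and none of these 3 was called, and Jam2 and Ildr1 were also lost without either hairpin library (1.49 to 2.28 and -3.00 to -2.53). Among 6 other claudins tested, 2 were higher and 1 lower in OSK-cJun than in OSK at day 7. Cldn1 had 255 and 81 in OSK-cJun, against 12 and 6 in OSK, and Cldn11 1653 and 197, against 47 and 24, and both calls were lost without the first OSK-cJun library, with folds of 3.10 and 2.51, as was that of the lower one, Cldn10 (-2.86). Of the adherens junction genes, 2 of 10 rose and 1 fell over OSK, near the 23.8% of all genes called, and 1 of these, Epb41l5, was not called without the first library of day 0 (0.98). Cdh1, the E-cadherin gene, had a mean of 1848.5 at day 7, against 20.5 at day 0 (7.06, SE 0.87, adjusted p = 1.11e-05).

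The protease list, with inhibitors and substrates, gave 7 of 9 higher and 2 lower over OSK, with a median of 4.18. Spint2, the other inhibitor of the Spint1 family, rose by 4.60 (SE 0.49, adjusted p = 1.87e-06) in OSK and was lower by -1.91 (SE 0.49, adjusted p = 0.0128) in OSK-cJun than in OSK at day 7, a call lost without the first OSK-cJun library (-1.50) or the second OSK library (-1.27). Of 12 splicing regulators 1 rose and 3 fell over OSK: Esrp2, the relative of Esrp1, rose by 2.60 (SE 0.57, adjusted p = 0.00185), while Celf2 fell by 2.76, Mbnl1 fell by 2.18 and Mbnl2 fell by 2.47. Esrp2 stood at 17 and 15 in OSK-cJun at day 7, against 83 and 84 in OSK (-2.32, SE 0.57, adjusted p = 0.00912), and lost its call without the first OSK-cJun library (-2.40) or the second OSK library (-2.31). Of 10 genes whose transcripts Esrp proteins splice, 2 rose and 2 fell over OSK, against 23.8% of all genes called. Of these 4 calls, Cd44 was lost without any 1 of the 4 libraries (-1.36 to -0.94), Nf2 without either day 0 library or the first of day 7 (0.997 to 1.15) and Fgfr2 without the second of day 0 or the first of day 7 (-0.96 and -1.12). Splice forms were not analysed here. Of 9 relatives and partners of Epcam, 1 rose, the tetraspanin gene Cd9 at 1.08 (0.92 and not called without the second OSK library of day 7), and 1 fell, Fhl2 at -4.81, a share close to the 23.8% of all genes called.

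Of the repressors of epithelial genes, 7 of 8 fell and 0 rose over OSK, with a median of -2.18. Snai2 fell by 4.62 (SE 0.62, adjusted p = 2.08e-05), and Zeb1 fell by 1.53 (SE 0.20, adjusted p = 1.4e-05). At day 7 OSK-cJun over OSK gave 3 of the 8 higher, Twist1, Snai2 and Twist2, and 1 lower, Snai1, but 0 of these 4 were called without the second OSK library (1.61, 1.27, 1.14 and -1.78). Snai1 was also lost without any other 1 of the 4 libraries (-1.78 each), and Snai2 and Twist2 without either OSK-cJun library (1.79 and 2.32 for Snai2, 1.69 and 1.48 for Twist2). Twist1 had 541 and 418 in OSK-cJun, against 155 and 59 in OSK (2.30, SE 0.46, adjusted p = 0.00242). Of 8 activators of epithelial genes 5 rose and 0 fell over OSK. Elf3, a factor of epithelial cells, had a mean of 594.5 at day 7, against 1 at day 0 (8.20, SE 0.33, adjusted p = 5.47e-11). Elf3 was lower than in OSK at day 7 both in OSK-cJun (-1.93, SE 0.33, adjusted p = 0.000726) and in OSK-shSap30 (-2.33, SE 0.33, adjusted p = 0.000348). In OSK-shSap30 0 of the 8 repressors were called.

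**Figure D4:**
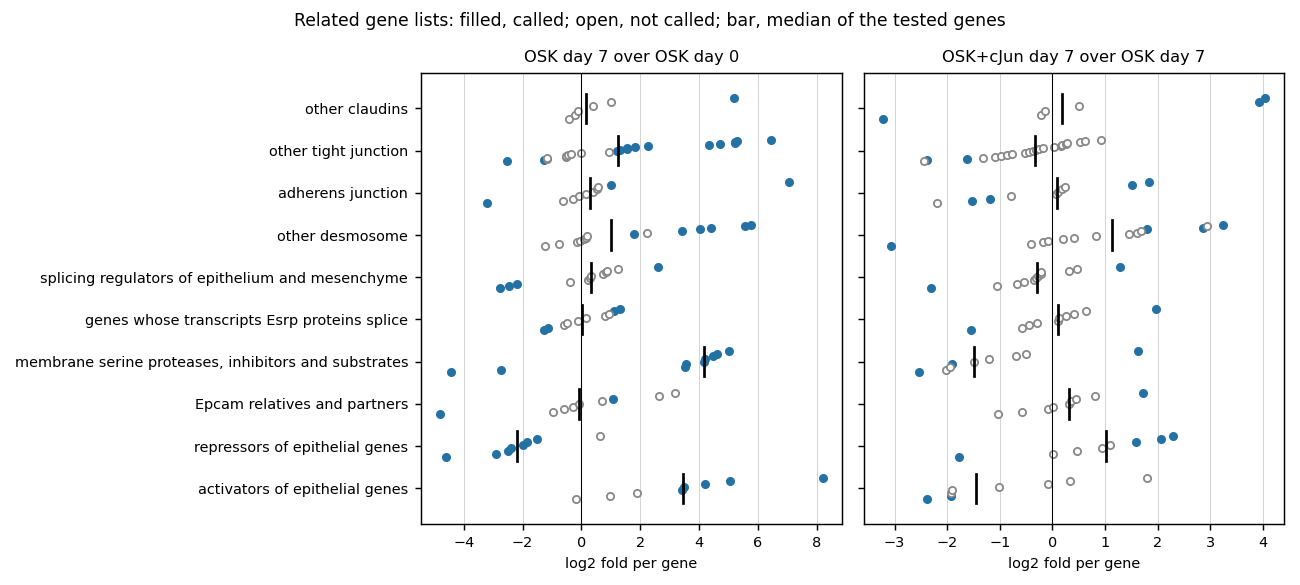
Log2 folds of the related genes by list for OSK day 7 over day 0 and for OSK-cJun over OSK at day 7, with 1 point per gene tested (filled where called, genes listed at 0 in a group included) and a bar at the list's median. In OSK 7 of the 8 repressors were called as lower, with a median of -2.18 for the list, and the protease list had a median of 4.18.

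Over the 13 group means, the genes most like each member by Pearson correlation of log2 values are given as a description, among genes with a group mean of at least 100. Spint1 ran closest to Dsg2 (r = 0.972) and Cdh1 (0.970), Cldn3 to F11r, a tight junction adhesion gene (0.932), and Epcam to Notum (0.971). Cldn4 ran closest to St8sia1 (0.976), Cldn7 to Rundc3a (0.962), Cldn6 to Clcn3 (0.948), Ocln to Zbtb32 (0.953) and Esrp1 to Slc2a1 (0.984). Dsp ran closest to Pcsk1n (0.962), followed by Nefl (0.960) and Cd9 (0.949), and its correlation with the other 8 members was lower, from -0.04 with Esrp1 to 0.62 with Ocln.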

How the data were processed

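Per the labels' protocols, TRIzol RNA went into TruSeq libraries for an Illumina NextSeq. The submitters' processing notes name RSEM, Bowtie2 and bcl2fastq and the mm10 build, without versions. The deposited values are a normalised score, not counts: sorted values of the libraries differed by at most 2 at any rank, so changes that affect most genes alike would not show. Of 18198 genes, 18039 had a symbol, and 0 sample columns were left unused. As the kit named in the labels keeps no strand, reads of genes overlapping Cldn3, Esrp1 and Dsp on the other strand could count toward them. Those overlapping genes have no values of their own in the data, so their part could not be checked.

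After adding 1 and taking log2, genes reaching a score of 10 in 2 or more libraries entered the test. The model, in R 4.3.3 with limma 3.58.1, had a mean for each group over the 26 libraries and robust, trended moderation (statmod 1.5.0), with p adjusted over all 16038 genes. A gene was called at an adjusted p below 0.05 and a log2 fold of at least 1. All adjusted p-values are from this limma fit. Alternatives were 0.1 or 8 in place of 1 added, no filter, a replicate block, only the compared groups, and leaving out each library, and, added after seeing the data, leaving out both OSK-D5 libraries. Files were read with data.table (1.17.8) and figures drawn with matplotlib 3.10.9 in Python 3.11.15. The 9 genes and the gene lists were chosen with earlier results of these data known. Named genes are the 9, up to 4 genes per list with the smallest adjusted p in a comparison, and the genes most correlated with each member.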

Additional observations from a re-analysis of the deposited data

Results flagged for a closer look

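Cldn4 changed less over the OSK-cJun course than over the OSK course. The difference of the log2 folds, OSK-cJun minus OSK, was -4.59 (SE 1.14, limma adjusted p = 0.0322), and the test was that of the interaction itself. Cldn4 had 12 and 10 at day 7 of OSK-cJun and 124 and 332 at day 7 of OSK, and it was listed at 0 in both OSK libraries of day 0.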

How the results depend on the processing

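Folds were recomputed only for called genes, for members whose groups did not overlap, and for the interaction. None changed direction, but without overlap the direction was fixed in advance under these alternatives, so this is no test of it. Counts of the 9 genes called moved as follows. With 0.1 added they were 1 for OSK-D1 over OSK-D0, 0 for OSK-D7 over OSK-D5, 1 for OSK-cJun-D7 over OSK-D7, 0 for OSK-shSap30-D7 over OSK-D7 and 0 for the interaction. With 8 added they were 1 for OSK-D1 over OSK-D0, 1 for OSK-D5 over OSK-D3, 4 for OSK-shSap30-D7 over OSK-D7, 2 for iPSC over ESC and 6 for the interaction. With only the compared groups they were 1 for OSK-D1 over OSK-D0, 1 for OSK-D3 over OSK-D1, 0 for OSK-D7 over OSK-D5, 0 for OSK-shSap30-D7 over OSK-D7 and 1 for iPSC over ESC. Without both OSK-D5 libraries, OSK-D1 over OSK-D0 gave 1. Counts of all genes called for OSK-D5 over OSK-D3 were 66 as reported, 25 with 0.1 and 137 with 8 added and 0 with only the compared groups. With only the compared groups they were 436 rather than 1120 for OSK-D0 over MEF, 0 rather than 651 for OSK-D7 over OSK-D5, and 0, 205 and 1195 rather than 12, 318 and 1891 for OSK-cJun over OSK at days 0, 1 and 7. They were 425 rather than 1580 for OSK-shSap30-D7 over OSK-D7 and 368 rather than 613 for the interaction. Replicate numbers were not used as pairs in the reported fit. Over 78 pairs of groups the correlation of deviations ran from -0.0883 to 0.331, with a median of -0.00127. In 28 pairs it was over 0.1, so some groups deviated together by replicate number, which the reported fit leaves out. The source of this was not tested. The replicate block gave 2 members called for the interaction, Dsp being the other one. The cause of these shifts was not tested, beyond the fewer samples of the narrower fits.

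Leaving out 1 library at a time, members called ranged over 0 to 1 for OSK-D1 over OSK-D0, 0 to 2 for OSK-D3 over OSK-D1, 0 to 1 for OSK-D5 over OSK-D3, 0 to 6 for OSK-D7 over OSK-D5, 0 to 1 for OSK-cJun-D3 over OSK-D3, 3 to 5 for OSK-cJun-D7 over OSK-D7, 0 to 2 for OSK-shSap30-D7 over OSK-D7, 0 to 1 for iPSC over ESC, 2 to 5 for iPSC over OSK-D7 and 0 to 1 for the interaction. All genes called ranged over 629 to 1339 for OSK-D0 over MEF, 388 to 721 for OSK-D1 over OSK-D0, 452 to 784 for OSK-D3 over OSK-D1, 0 to 476 for OSK-D5 over OSK-D3, 4 to 1790 for OSK-D7 over OSK-D5, 1 to 11, 52 to 159, 713 to 813 and 1042 to 1734 for OSK-cJun over OSK at days 0, 1, 3 and 7, 511 to 1783 for OSK-shSap30-D7 over OSK-D7, 534 to 870 for iPSC over ESC and 207 to 642 for the interaction. A lone library in a group was then assumed to vary like the other groups. Depth is unknown, so scores near 0 carry an unknown counting error.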
